A study of Homo sapiens with 8 samples.

Results

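The 8 genes described here regulate the sterol regulatory element-binding proteins (SREBPs) or move cholesterol: SREBF1, SREBF2, SCAP, INSIG1, INSIG2, STARD4, NPC1 and ABCA1. They were chosen by symbol from a table of 60332 genes, keeping the row with the highest mean where a symbol had several. Each symbol had a single row, so no measured level decided which row was used. The set of genes itself was chosen with earlier results of these data known. The RNA libraries came from 2 established lines of Ewing sarcoma (EwS), a tumor driven by the EWSR1::FLI1 fusion: RD-ES and SK-N-MC, each with 2 control libraries and 2 eKD2 libraries, 8 in all. The eKD2 cells of both lines were pools, not clones, that carried dCas9-KRAB, a Cas9 without cutting activity joined to a repressor domain, and a guide beside a GGAA repeat that serves as an enhancer of LOXHD1. The sample titles name the controls cas9. The labels describe them as cells that received the dCas9-KRAB virus without a guide, whereas the study's account of the RNA-seq speaks of parental cells. The multiplicity of infection was 10, puromycin selection (1 µg/ml) lasted 3 days, no more than 5 passages followed, and all groups grew in medium with 10% serum, a source of lipoprotein cholesterol. The study calls the 2 libraries of a group biological duplicates, and neither it nor the labels say whether they came from separate infections or cultures, so p-values measure the spread between these libraries.

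SREBPs are transcription factors made as membrane proteins of the endoplasmic reticulum. The escort protein SCAP carries them to the Golgi, where proteases release the active part, and the sterol-sensing anchors INSIG1 and INSIG2 hold SCAP back when sterols are plentiful. Active SREBPs induce the genes of cholesterol and fatty acid synthesis, and they also induce SREBF1, SREBF2, INSIG1, STARD4 and NPC1. Oxysterols, which build up with cholesterol, activate the liver X receptors (LXRs), and these induce ABCA1, the pump that exports cholesterol from the cell. The comparison of interest was therefore between the SREBP-induced genes and ABCA1, in eKD2 against control cells of each line. No gene was counted here as both SREBP-induced and LXR-induced. Whether a gene of any list also answers to the other factor was not tested.

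The promoters of ABCA1 and of the 3 members with the lowest p in SK-N-MC (INSIG1, STARD4 and SREBF2) are shown, and these are the 4 members with a match to the motifs searched. Each runs from 250 bases before to 50 after the annotated start, is taken from RefSeq on GRCh38.p14 and reads 5′ to 3′ on the strand of the gene. Promoters were found for all 8 members. Capitals mark matches, on either strand, to a sterol regulatory element (TCACNCCAC), to the CCAAT box bound by NF-Y, a factor that works with SREBPs, and to the direct repeat that LXRs bind (AGGTNA, any 4 bases, then NGGTCA, matched on the opposite strand in ABCA1).
SREBF2 (chr22:41832855-41833154, plus strand): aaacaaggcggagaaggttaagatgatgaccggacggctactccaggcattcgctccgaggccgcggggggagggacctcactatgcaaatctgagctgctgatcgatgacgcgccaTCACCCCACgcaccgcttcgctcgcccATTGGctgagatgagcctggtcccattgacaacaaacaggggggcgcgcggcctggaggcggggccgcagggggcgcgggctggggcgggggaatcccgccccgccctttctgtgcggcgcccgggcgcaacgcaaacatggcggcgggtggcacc
INSIG1 (chr7:155297628-155297927, plus strand): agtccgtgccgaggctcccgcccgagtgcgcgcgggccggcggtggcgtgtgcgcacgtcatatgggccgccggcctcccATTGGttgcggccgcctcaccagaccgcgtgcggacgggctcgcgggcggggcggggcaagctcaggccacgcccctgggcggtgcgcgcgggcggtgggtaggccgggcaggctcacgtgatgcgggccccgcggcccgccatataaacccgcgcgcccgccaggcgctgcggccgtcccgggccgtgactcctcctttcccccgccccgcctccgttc
STARD4 (chr5:111512486-111512785, minus strand): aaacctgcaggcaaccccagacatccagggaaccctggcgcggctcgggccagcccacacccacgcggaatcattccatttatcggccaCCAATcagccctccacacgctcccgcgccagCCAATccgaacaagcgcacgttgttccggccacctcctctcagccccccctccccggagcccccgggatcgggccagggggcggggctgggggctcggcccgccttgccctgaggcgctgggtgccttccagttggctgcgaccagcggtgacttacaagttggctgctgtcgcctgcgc
ABCA1 (chr9:104928106-104928405, minus strand): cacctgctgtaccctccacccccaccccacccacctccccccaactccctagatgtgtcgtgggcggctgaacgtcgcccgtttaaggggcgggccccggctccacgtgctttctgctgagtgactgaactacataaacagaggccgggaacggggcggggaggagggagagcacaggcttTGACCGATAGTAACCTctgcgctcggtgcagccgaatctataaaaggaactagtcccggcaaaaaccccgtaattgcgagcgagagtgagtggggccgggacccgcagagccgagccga
The sterol element was found in 1.13% of 35116 promoters of this length and, among the members, in that of SREBF2, at position -133 from the start. CCAAT, on either strand, was found in 34.6% of them, and in those of SREBF2, INSIG1 and STARD4, the last with 2 copies. The LXR repeat was found in 33 promoters (0.0940%), among them that of ABCA1, at position -69. Of 24 other SREBP-induced genes with a promoter found, 19 held CCAAT in at least 1 promoter. None held the sterol element or the LXR repeat as spelled here. These are counts of genes, whereas the shares above are of promoters. A gene can have several promoters, so the 2 cannot be compared directly. A match is a run of letters and not a measured binding site, and the missing matches say only that these letters were not in these windows.

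Values are FPKM, that is, reads of a gene scaled by the length of its transcripts and by the size of the library, so levels of different genes can be set side by side. Read totals per library were not at hand. A rough estimate from the spacing of low values put the depth between 6610000 reads (eKD2 replicate 1 of RD-ES) and 26400000 reads (control replicate 1 of SK-N-MC). LOXHD1 lay at 21.4 and 21.2 FPKM in the RD-ES controls against 1.04 and 1.02 in eKD2, and in SK-N-MC its mean was 164 ± 7.12 FPKM in control and 11.5 ± 0.674 in eKD2 libraries (SD, n = 2 each). ZNF10, whose KRAB domain is the one in dCas9-KRAB, was higher in eKD2 than in control libraries, with means of 52.5 against 9.28 FPKM in RD-ES and 62.4 against 8.94 FPKM in SK-N-MC. If reads of the KRAB insert count toward ZNF10, these values go against the label of the controls as cells with dCas9-KRAB, and in every comparison of eKD2 with control the guide and dCas9-KRAB itself cannot be told apart. Of the EwS markers, CD99 (201 to 586 FPKM) and NKX2-2 (24.2 to 30.7 FPKM) were high in all 8 libraries, as were STEAP1 and LIPI (at least 54.1 and 17.6 FPKM), whereas NR0B1 read 51.0 to 59.6 FPKM in SK-N-MC and 2.38 to 3.84 in RD-ES. Of the markers of other cell types, MYOD1, KRT5 and CDH5 were at or near 0, whereas PTPRC, a leukocyte gene, read 19.2 to 22.6 FPKM in the SK-N-MC libraries and at most 0.0173 in RD-ES, and EPCAM reached 4.54 FPKM in SK-N-MC. PTPRC and EPCAM did not pass the test between eKD2 and control in either line.

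In the control cells the members differed widely in level. In SK-N-MC the order of mean FPKM was SREBF2 (96.2 ± 6.24), SREBF1 (47.8 ± 2.37), SCAP (19.4 ± 3.78), NPC1 (14.8 ± 1.68), INSIG2 (13.9 ± 1.14), INSIG1 (13.7 ± 0.00191), STARD4 (8.66 ± 0.0251) and ABCA1 (0.736 ± 0.0113; SD, n = 2 each). NPC1, INSIG2 and INSIG1 lay within each other's spread, and the library values of SCAP, at 22.1 and 16.8 FPKM, also came close to the higher NPC1 value of 16.0. In RD-ES the order was SREBF2 (41.8 ± 0.854), SCAP (27.6 ± 7.21), SREBF1 (24.4 ± 4.13), INSIG2 (18.5 ± 2.96), NPC1 (12.7 ± 4.23), STARD4 (5.53 ± 0.849), INSIG1 (3.17 ± 0.588) and ABCA1 (0.107 ± 0.0106; SD, n = 2 each). Here the values of SCAP and SREBF1 overlapped, and the lower INSIG2 value of 16.4 FPKM came close to the higher NPC1 value of 15.7. SREBF2 thus had the highest level and ABCA1 the lowest in both lines.

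**Figure D1:**
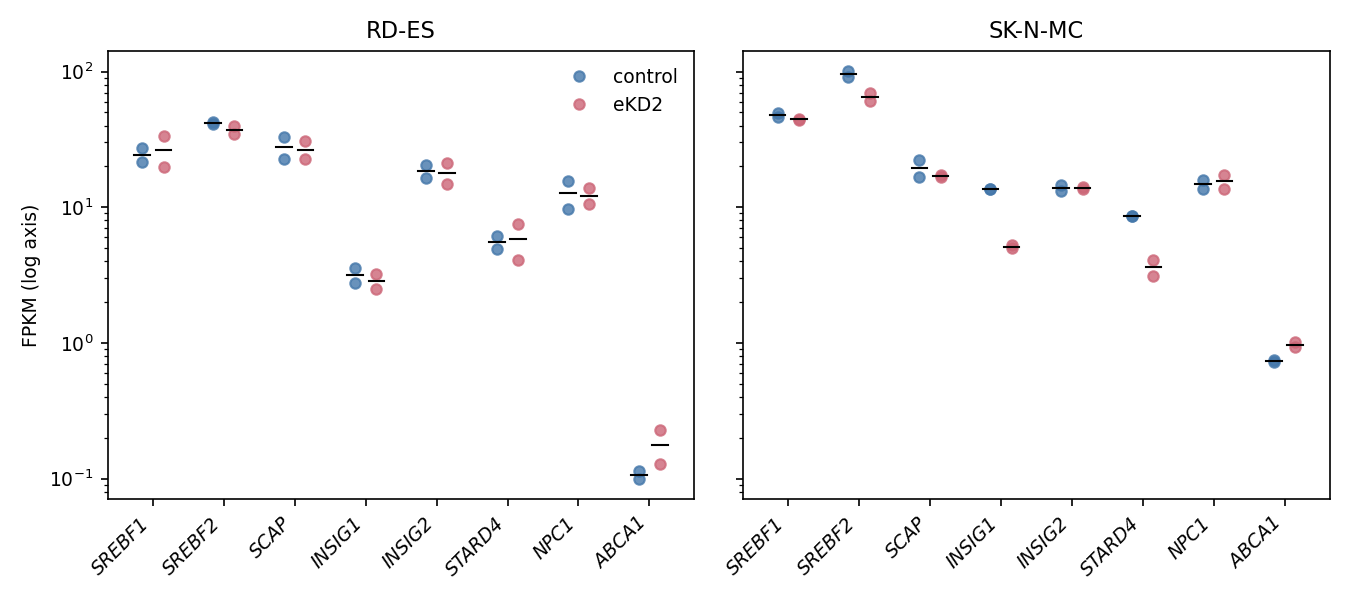
FPKM of the 8 genes in each library on a log axis, RD-ES on the left and SK-N-MC on the right. Points are libraries, blue for control and red for eKD2 (2 each), and bars are group means. In SK-N-MC both eKD2 points of INSIG1, STARD4 and SREBF2 lie well below the control points. Both ABCA1 points lie above the controls in both lines.

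INSIG1, a brake on SREBP processing that is itself an SREBP target, was the member that passed the adjusted threshold, as lower, in SK-N-MC eKD2 cells. STARD4 and SREBF2, described below, were lower there too but did not pass. INSIG1 read 13.7 FPKM in both control libraries and 5.27 and 4.99 in the eKD2 libraries. The groups did not overlap, and the mean fell by 62.6%, from 13.7 ± 0.00191 to 5.13 ± 0.196 FPKM (SD, n = 2 each). On the log2(FPKM + 1) scale the difference was -1.26 (SE 0.144, 95% interval -1.62 to -0.91), and limma gave an adjusted p of 0.040 over 15175 genes, with INSIG1 at rank 43. It was 1 of 7 members tested that passed, where 0.323% of all genes tested passed in either direction and 0.171% passed as lower. The call was a narrow one: it was lost in 16 of 17 alternatives, among them leaving out any of the 8 libraries (adjusted p = 0.085 to 0.26 by limma), while the difference stayed between -1.40 and -1.23 in all 17. In RNA from whole pools of cells, fewer cells with INSIG1 RNA and less of it per cell cannot be told apart. INSIG2, which does the same work but is not an SREBP target, read 14.7 and 13.1 FPKM in control and 14.1 and 13.6 in eKD2 libraries. Its log2 difference was 0.00038 (95% interval -0.46 to 0.46), and its groups overlapped. The ratio of INSIG1 to INSIG2 FPKM within a library, which library scaling cannot move, was 0.934 and 1.05 in the SK-N-MC controls and 0.374 and 0.366 in eKD2.

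In RD-ES the level of INSIG1 was low to begin with, at 3.58 and 2.75 FPKM in control and 3.23 and 2.52 in eKD2 libraries. The groups overlapped, the log2 difference was -0.10 (SE 0.144, 95% interval -0.46 to 0.25) and limma gave an adjusted p of 0.82. INSIG2 read 20.6 and 16.4 FPKM against 14.8 and 21.3 in RD-ES, with a log2 difference of -0.046 (95% interval -0.50 to 0.41). The ratio of INSIG1 to INSIG2 was 0.174 and 0.168 in the RD-ES controls and 0.219 and 0.118 in eKD2. The difference between the INSIG1 effects of the lines was -1.16 (SE 0.204, log2 scale), with an unadjusted p of 0.0012 and an adjusted p of 0.14 by limma. The pattern of RD-ES and SK-N-MC is therefore not shown to differ at the adjusted threshold.

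STARD4, a soluble carrier that moves cholesterol between membranes, had both eKD2 libraries of SK-N-MC below both controls, at 4.10 and 3.11 against 8.68 and 8.64 FPKM. The ratio of means was 0.416, and the log2 difference was -1.08 (SE 0.259, 95% interval -1.71 to -0.45), with an unadjusted p of 0.0058 and an limma adjusted p of 0.21. In RD-ES it read 6.13 and 4.93 FPKM in control against 7.57 and 4.11 in eKD2 libraries. The eKD2 pair lay on both sides of the controls there, with a log2 difference of 0.026 (95% interval -0.61 to 0.66). The effects of the lines differed by -1.10 (SE 0.366, unadjusted p = 0.023, adjusted p = 0.29 by limma). NPC1, the lysosomal membrane protein that passes cholesterol out of lysosomes, read 13.6 and 16.0 FPKM in control and 17.3 and 13.7 in eKD2 libraries of SK-N-MC, a log2 difference of 0.060 (95% interval -0.55 to 0.67). In RD-ES it read 15.7 and 9.70 FPKM against 13.8 and 10.5, a log2 difference of -0.034 (95% interval -0.64 to 0.57). The NPC1 groups overlapped in both lines. NPC1 shares 25639 bases of its locus with RMC1 on the opposite strand (6.64 to 11.4 FPKM), and the library kit did not mark strand, so reads of shared sequence cannot be told apart. The ratio of STARD4 to NPC1 FPKM was 0.638 and 0.541 in the SK-N-MC controls and 0.237 and 0.227 in eKD2, while in RD-ES the values of 0.391 and 0.508 in control and 0.547 and 0.392 in eKD2 overlapped.

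SREBF2, which encodes the SREBP that mainly drives cholesterol synthesis, was lower in both eKD2 libraries than in both controls of either line, without passing the adjusted test in either. In SK-N-MC it read 91.8 and 101 FPKM in control and 60.5 and 69.7 in eKD2 libraries, a ratio of means of 0.677. The log2 difference was -0.56 (SE 0.103, 95% interval -0.81 to -0.31), with an unadjusted p of 0.0016 and an adjusted p of 0.15 by limma. In RD-ES it read 41.2 and 42.4 against 34.9 and 39.6 FPKM, a log2 difference of -0.16 (SE 0.103, 95% interval -0.42 to 0.087, adjusted p = 0.56 by limma). SREBF1, which encodes the SREBP that mainly drives fatty acid synthesis, differed little in SK-N-MC: 46.1 and 49.4 FPKM in control and 44.2 and 44.9 in eKD2 libraries. Its log2 difference was -0.098 (95% interval -0.69 to 0.49), although the groups did not overlap. In RD-ES the SREBF1 groups overlapped, at 21.5 and 27.4 against 19.7 and 33.5 FPKM. SREBF1 overlaps RAI1 on the opposite strand over 1055 bases (RAI1 at 4.72 to 14.7 FPKM). SCAP, which is not counted among the SREBP targets here, read 22.1 and 16.8 FPKM in control and 17.4 and 16.7 in eKD2 libraries of SK-N-MC, a log2 difference of -0.17 (95% interval -0.73 to 0.39). In RD-ES it read 22.5 and 32.7 against 22.6 and 30.5 FPKM, a log2 difference of -0.045. The intervals of SREBF1 and SCAP reach 0.5 or more from 0 on the log2 scale, on at least the lower side, in either line, so smaller shifts were not detectable with 2 libraries a group. For a single gene taken alone, the smallest p of an exact two-sided permutation test with 2 libraries on each side is 0.333.

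ABCA1, the LXR-induced exporter, had the opposite sign from the SREBP-induced members that differed in SK-N-MC, but its level was low and its difference small. It read 0.728 and 0.744 FPKM in control and 0.926 and 1.02 in eKD2 libraries of SK-N-MC, a ratio of means of 1.32. In RD-ES it read 0.115 and 0.0997 against 0.129 and 0.227 FPKM, a ratio of 1.66. Both eKD2 libraries were above both controls in each line. Among all genes tested this order held for 22.2% in SK-N-MC and 24.2% in RD-ES. The mean of ABCA1 lay under the minimum of 1 FPKM, so it was not among the genes tested. With no filter on low values its log2 difference was 0.18 in SK-N-MC (SE 0.0757, unadjusted p = 0.057, adjusted p = 0.54 by limma) and 0.088 in RD-ES (SE 0.0757, adjusted p = 0.76 by limma). The added 1 FPKM shrinks differences at such levels: with 0.1 FPKM added, the log2 differences were 0.36 and 0.40. By the rough estimate of depth, ABCA1 rested on about 8 to 30 reads in each RD-ES library and 89 to 240 in each SK-N-MC library. The ratio of INSIG1 to ABCA1 FPKM was 18.9 and 18.4 in the SK-N-MC controls against 5.69 and 4.91 in eKD2, and 31.2 and 27.6 in the RD-ES controls against 25.1 and 11.1 in eKD2. The numerator made most of this difference in SK-N-MC, and the denominator in the second RD-ES library.

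**Figure D2:**
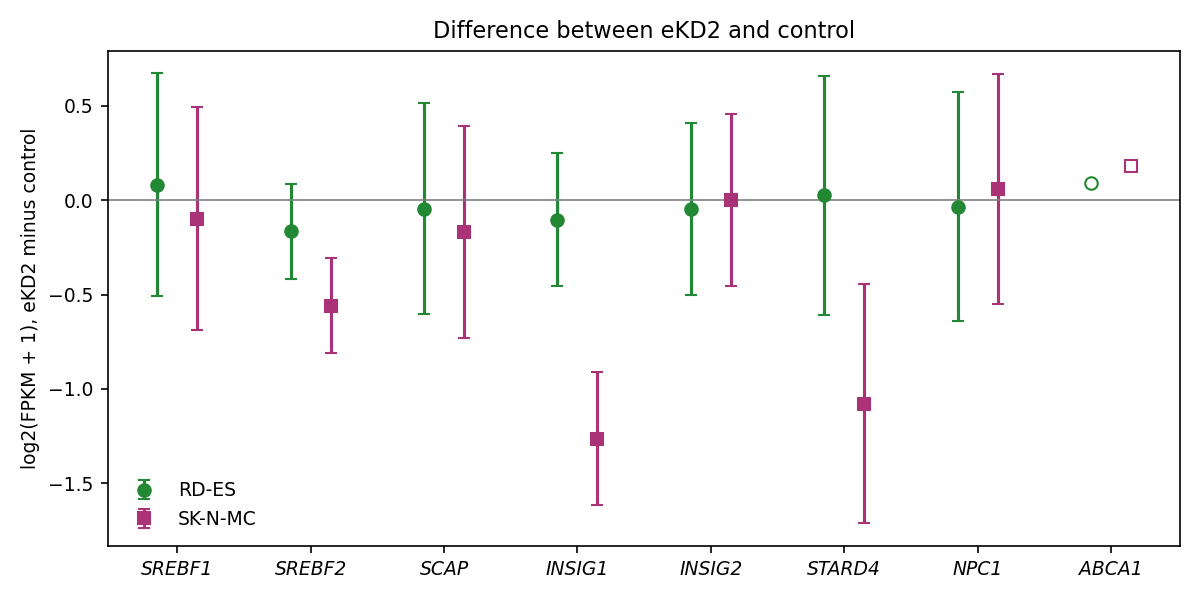
Difference between eKD2 and control (log2(FPKM + 1), vertical axis) for the 8 genes, green circles for RD-ES and purple squares for SK-N-MC. Bars are 95% intervals from limma. ABCA1 is drawn open and without an interval because it lay under the minimum level for the test. The intervals of INSIG1, STARD4 and SREBF2 in SK-N-MC lie below 0, and those of the other tested values include 0.

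Read together, 4 of the 5 SREBP-induced members had a lower mean in SK-N-MC eKD2 cells and NPC1 did not. Their median log2 difference was -0.56 in SK-N-MC and -0.034 in RD-ES, where the median of all genes tested was -0.0049 and 0.031. Of the 7 members tested, 1 passed the adjusted threshold and 3 an unadjusted p of 0.05 in SK-N-MC, all as lower, where 13.0% of all genes had such a p and 7.29% as lower. Both eKD2 libraries were lower than both controls for 4 of the 7, where 25.1% of all genes showed this. In RD-ES, 0 of 7 members passed the adjusted threshold in limma and 0 had an unadjusted p under 0.05, where 0.343% and 12.3% of all genes did. In RD-ES 1 of the 7, SREBF2, was lower in both eKD2 libraries, where 15.1% of all genes were. For the difference between the lines 0 of 7 passed in limma and 3 (INSIG1, STARD4 and SREBF2) had an unadjusted p under 0.05, where 0.244% and 13.5% of all genes did, 9.16% as lower. The comparisons of the lines share no libraries, but the spread behind both tests came from all 4 groups, so the tests are not independent.

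The other SREBP-induced genes, a list of 31 that were all tested, lay lower in SK-N-MC eKD2 cells more often than higher. Their median log2 difference was -0.52, with 28 below and 3 above 0, and 9 fell at the adjusted threshold while none rose (0.171% of all genes tested passed as lower). An unadjusted p under 0.05 was reached by 21, all lower (7.29% of all genes), and for 25 of the 31 both eKD2 libraries lay below both controls (25.1% of all genes). The list was chosen with earlier results of these data known, so its counts are not independent support for a pattern. Of the 9 that fell, 7 are named here, and they belong to several steps of the pathway. HMGCS1, which makes HMG-CoA, the substrate of the rate-limiting reductase, fell from 67.5 ± 3.67 to 24.9 ± 1.65 FPKM (log2 difference -1.40, adjusted p = 0.032 by limma). FDPS and FDFT1, which build farnesyl diphosphate and squalene, fell by 0.70 and 1.12 on the log2 scale (limma adjusted p = 0.034 and 0.032). Of the later sterol enzymes, CYP51A1 fell by 0.93 and MSMO1 by 0.86 (adjusted p = 0.018 and 0.034 by limma). ACAT2, a cytosolic thiolase, fell by 1.01 (adjusted p = 0.0084 by limma), and SCD, a fatty acid desaturase, by 0.83 (adjusted p = 0.0094 by limma).

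The spread behind these calls came from all 4 groups, and the count of 9 depended on it. It was 0 with SK-N-MC fitted alone and 1 to 4 after leaving out single libraries, which was 1 without either RD-ES control, 2 without either SK-N-MC control, 3 without either SK-N-MC eKD2 library and 4 without either RD-ES eKD2 library. The median of the list stayed between -0.55 and -0.52 in all these settings. In RD-ES the same 31 genes had a median log2 difference of -0.15, with 24 below and 7 above 0. None passed the adjusted threshold in limma, and 4 (MSMO1, ACLY, EBP and LSS, named for their p) had an unadjusted p under 0.05, all lower (3.79% of all genes). Both eKD2 libraries lay below both controls for 17 of the 31 and above both for 2 (15.1% and 24.2% of all genes). Taken library by library against the control mean, the median of the list was -0.54 and -0.55 in the SK-N-MC eKD2 libraries and -0.12 and -0.14 in those of RD-ES. The difference between the lines passed for 2 of the 31, among them CYP51A1 (-1.10, adjusted p = 0.038 by limma), where 0.138% of all genes passed as lower. The count of 2 was 0 without RD-ES control replicate 1 and after leaving out any single SK-N-MC library, and 1 without RD-ES control replicate 2 or RD-ES eKD2 replicate 1.

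**Figure D3:**
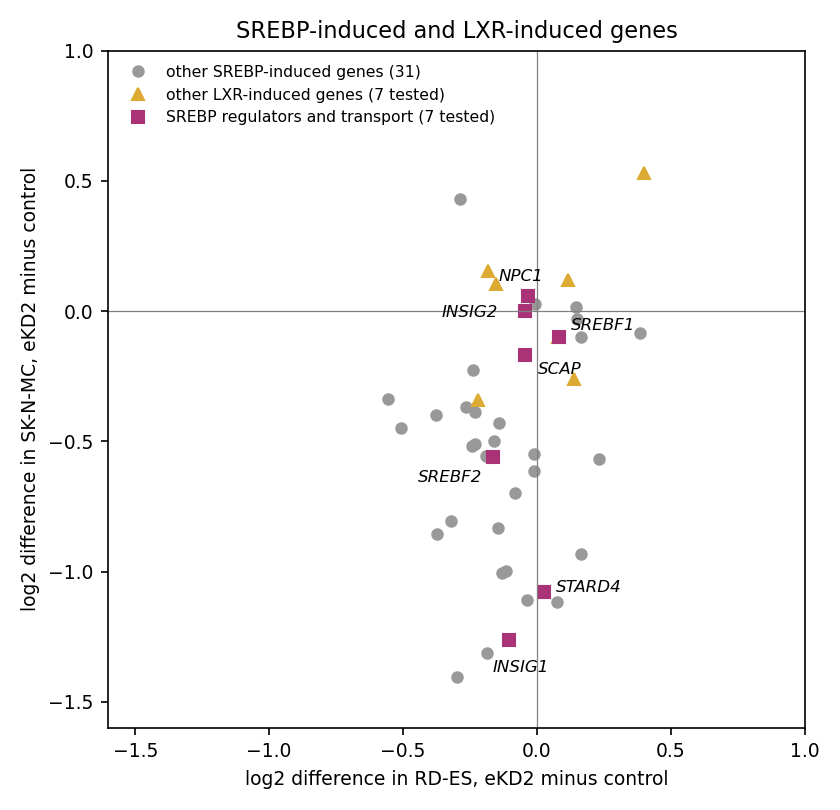
Difference between eKD2 and control (log2(FPKM + 1)) in RD-ES, horizontal axis, and SK-N-MC, vertical axis. Grey circles are the 31 other SREBP-induced genes, yellow triangles the 7 tested LXR-induced genes and purple squares the 7 tested members, and no error bars are drawn. Of the grey circles, 28 lie below 0 on the vertical axis and 24 lie below 0 on the horizontal axis. The triangles lie on both sides of 0 on both axes, and that of MYLIP is covered by the SREBF1 square.

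The proteins that process or degrade SREBPs, SCAP, the INSIGs or HMG-CoA reductase (11 genes, all tested) held no gene past the adjusted threshold in limma in either line. In SK-N-MC an unadjusted p under 0.05 was reached by 1 lower gene and by 1 higher gene (7.29% and 5.71% of all genes), and in RD-ES by 1 higher gene (8.49% of all genes). RNF145, a ubiquitin ligase of the endoplasmic reticulum that acts on SCAP, read 59.8 and 57.7 FPKM in control and 91.1 and 89.7 in eKD2 libraries of SK-N-MC. The groups stood far apart, with a log2 difference of 0.61 (SE 0.0836, adjusted p = 0.071 by limma). In RD-ES RNF145 groups overlapped (log2 difference 0.069). RNF139, another such ligase, had a log2 difference of 0.31 in RD-ES (adjusted p = 0.22 by limma), and FAF2, which helps to extract degraded proteins from the membrane, one of -0.24 in SK-N-MC (adjusted p = 0.22 by limma).

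The other LXR-induced genes, 7 of 10 tested, held none past the adjusted threshold in limma in either line. Their median log2 difference was 0.10 in SK-N-MC and 0.077 in RD-ES, with 4 above and 3 below 0 in each. Of the 7, both eKD2 libraries lay above both controls for 2 in SK-N-MC and 1 in RD-ES (22.2% and 24.2% of all genes). They lay below both for 3 in each line (25.1% and 15.1% of all genes). An unadjusted p under 0.05 was reached by 1 higher and 1 lower gene in SK-N-MC (5.71% and 7.29% of all genes). In RD-ES 1 higher gene reached it (8.49% of all genes). APOE, the lipoprotein component that accepts exported cholesterol, was higher in both eKD2 libraries of both lines. It read 15.6 and 15.2 FPKM in control and 22.5 and 23.0 in eKD2 libraries of SK-N-MC, a log2 difference of 0.53 (SE 0.0761, adjusted p = 0.079 by limma). In RD-ES it read 18.8 and 17.1 against 24.0 and 24.0 FPKM, a log2 difference of 0.40 (adjusted p = 0.16 by limma). SMPDL3A, a phosphodiesterase, had log2 differences of -0.34 in SK-N-MC and -0.22 in RD-ES. ABCG1, a cholesterol exporter like ABCA1, read 0.923 and 0.941 FPKM in control and 0.907 and 1.14 in eKD2 libraries of SK-N-MC, with overlapping groups, and at most 0.164 FPKM in RD-ES. ABCG5 and ABCG8 were listed at 0 in all 8 libraries.

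The 5 LXR and RXR receptors were all tested and none passed in limma, also not at an unadjusted p of 0.05. NR1H3, which encodes LXRα, read 1.35 to 5.14 FPKM over the 8 libraries. The log2 differences of RXRA, a partner of the LXRs, were -0.13 in SK-N-MC and -0.19 in RD-ES, and those of RXRG 0.24 and 0.18. None of the 4 oxysterol-forming enzymes reached the minimum level for the test, and CYP11A1 was listed at 0 throughout. Of the 22 other cholesterol transport genes 21 were tested and none passed the adjusted threshold in limma in either line, while 2 were higher at an unadjusted p in SK-N-MC (5.71% of all genes), and 2 higher and 1 lower in RD-ES (8.49% and 3.79% of all genes), counts near the shares over all genes. NPC2, which works with NPC1 in the lysosome, had a log2 difference of 0.28 in SK-N-MC (adjusted p = 0.26 by limma) and 0.16 in RD-ES. GRAMD1C, a cholesterol transfer protein, had one of 0.57 in RD-ES (adjusted p = 0.24 by limma), and ABCA7, a transporter related to ABCA1, one of -0.67 there (adjusted p = 0.31 by limma).

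Between the control cells of the lines 3 of the 7 members tested differed. INSIG1 was 4.33-fold higher in SK-N-MC than in RD-ES controls (log2 difference 1.83, adjusted p = 1.6e-04 by limma), SREBF2 2.30-fold (1.18, 2.4e-04) and SREBF1 1.95-fold (0.95, 0.016). The call for SREBF1 was lost without RD-ES control replicate 1 (adjusted p = 0.098 by limma), SK-N-MC control replicate 1 (0.067) or SK-N-MC control replicate 2 (0.088). STARD4 (log2 difference 0.57), NPC1 (0.24), INSIG2 (-0.38) and SCAP (-0.47) did not pass. ABCA1, at 6.86-fold, was tested without the filter only, with a log2 difference of 0.65 and an limma adjusted p of 0.0023. Among all genes 57.8% passed between the lines, 31.4% as higher and 26.4% as lower in SK-N-MC, so 3 of 7 members is not more than the background. In eKD2 cells the ratio of SK-N-MC to RD-ES means was 1.78 for INSIG1, and for STARD4 it was 0.617 against 1.57 in the controls. Each line was sampled once, and the differences of PTPRC and EPCAM given above go with it. Their part in the differences between lines was not tested.

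Across the 8 libraries, centred within each line, the tested genes most like INSIG1 on the log2 scale were RBM8A (Pearson's r = 0.990), TPX2 (0.989) and BCCIP (0.989). Those most like ABCA1 were HIP1 (0.990), AC027309.2 (0.983) and ATRAID (0.977). These are the highest of 15175 correlations over 8 points that share libraries and groups, and they are given as a description.

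**Figure D4:**
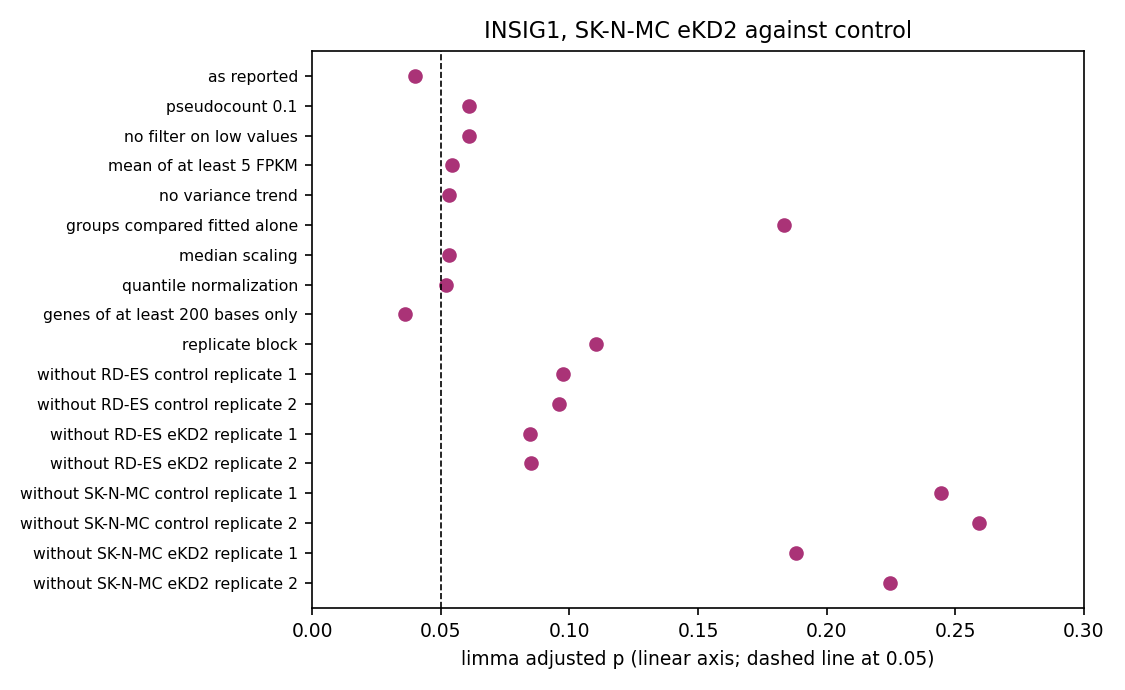
Adjusted limma p of INSIG1 in SK-N-MC eKD2 against control (horizontal linear axis) as reported and under 17 alternatives (vertical axis), 8 of which leave out a library. The dashed line is the threshold of 0.05. The value as reported and that for genes of at least 200 bases lie below it, and the other 16 lie above it, up to 0.26.

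The members lie, on GRCh37, at chr17:17713713-17740316 (SREBF1), chr22:42229109-42303310 (SREBF2), chr3:47455171-47518616 (SCAP), chr7:155089486-155101945 (INSIG1), chr2:118846028-118868573 (INSIG2), chr5:110831731-110848288 (STARD4), chr18:21086148-21166470 (NPC1) and chr9:107543287-107690436 (ABCA1), and all are annotated as protein-coding. The intronic microRNA genes MIR33A in SREBF2 and MIR33B in SREBF1 were listed at 0, in libraries made from poly-A RNA. SREBF2-AS1 and STARD4-AS1, on the opposite strand, read at most 0.165 and 0.190 FPKM.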

How the data were processed

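RNA of RD-ES and SK-N-MC cells was poly-A selected and made into libraries with a kit that does not mark strand. Reads (single-end, 75 bases) were mapped by the authors with STAR to GRCh37, and cuffnorm gave the FPKM they deposited, for 60332 genes in 8 libraries. The read counts that the study tested were not used here. From the FPKM, log2(FPKM + 1) was computed for the 15175 genes whose mean reached 1 FPKM. The 4 groups were fitted together with limma 3.58.1 (R 4.3.3; lmFit, contrasts and eBayes with a trend), and p-values were adjusted over all genes tested (Benjamini-Hochberg). A gene passed at an adjusted p under 0.05. Replicates correlated at 0.937 to 0.945 across genes. Named are the 8 members, LOXHD1 and ZNF10, and from each gene list the genes past the threshold and the 3 with the lowest p in either line. The members and lists were chosen with earlier results of these data known. The p-values of the members and the counts in the lists are therefore not independent support for a pattern. Positions are from GENCODE on GRCh37, and promoters from RefSeq on GRCh38.p14. Some genes of these lists are counted but not reported here by name.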

Additional observations from a re-analysis of the deposited data

Results flagged for a closer look

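For CYP51A1, a gene of cholesterol synthesis, the difference between eKD2 and control cells itself differed between the lines in limma (interaction on the log2(FPKM + 1) scale, adjusted over all genes tested). The interaction was -1.10 (adjusted p = 0.038), from -0.93 in SK-N-MC and 0.16 in RD-ES, where both eKD2 libraries (24.3 and 25.0 FPKM) lay above both controls (20.5 and 23.3 FPKM). This call was lost at least without the variance trend, with the replicate block, and without RD-ES control replicate 1 or any single SK-N-MC library.

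Among the genes named for their p, 2 more (CD99 and FAF2) had both eKD2 libraries on one side of the controls in RD-ES and on the other in SK-N-MC. The interaction of these 2 did not pass the adjusted threshold in limma. Genes outside that choice, LRP1, VLDLR and CDH5 among them, had opposite orders too. Such orders are common in each line: of all genes tested, 15.1% lay lower and 24.2% higher in RD-ES, and 25.1% and 22.2% in SK-N-MC. CD99, an EwS marker, was lower in RD-ES and higher in SK-N-MC (interaction 0.33, adjusted p = 0.32). FAF2 was higher in RD-ES and lower in SK-N-MC (interaction -0.29, adjusted p = 0.28).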

How the results depend on the processing

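With 2 libraries a group, the number of calls moved more than the differences. Genes past the threshold numbered 52 in RD-ES, 49 in SK-N-MC and 37 for the difference between the lines. Without the filter they were 79, 118 and 66, with a mean of at least 5 FPKM the last was 24, and for genes of at least 200 bases the last 2 were 31 and 18. With each line fitted alone they were 1 and 13. Leaving out single libraries gave 27 to 71, 12 to 76 and 54 to 81, and between the controls of the lines 6926 to 9059 (8777 with all).

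The 1 member called in SK-N-MC became 0 with a pseudocount of 0.1, without the filter, with a mean of at least 5 FPKM, without the variance trend, with SK-N-MC fitted alone, with median scaling, with quantile normalization and without any single library (0 to 0). The members called between control lines ranged from 2 to 4 without single libraries. The 9 other SREBP-induced genes that fell in SK-N-MC (a count repeated after seeing the data) were 5 without the variance trend, 0 with SK-N-MC fitted alone and 1 to 4 without single libraries. The 2 of the difference between lines were 0 without the trend, 1 with median scaling and 0 to 2 without single libraries, and their count between control lines was 5 to 7.

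Neither the study nor the labels say whether the replicate numbers mark a shared culture. Same-numbered libraries deviated together little (correlation 0.056 for the RD-ES libraries and 0.027 for SK-N-MC), which does not settle whether they shared one. With the replicate block, genes called fell to 11, 5 and 7, the INSIG1 call in SK-N-MC was lost (0 members, limma adjusted p = 0.11), and the other SREBP-induced genes called were 0 in SK-N-MC and 0 for the difference between lines.

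Signs turned in values of at most 0.24 on the log2 scale as reported. STARD4 in RD-ES was -0.036 with median scaling and -0.069 with quantile normalization, and the difference between lines of ABCA1 was -0.046 with a pseudocount of 0.1. Leaving out single libraries gave, on the log2 scale in RD-ES, -0.29 to 0.45 for SREBF1, -0.25 to 0.041 for INSIG1, -0.29 to 0.20 for INSIG2, -0.35 to 0.29 for NPC1, -0.30 to 0.22 for SCAP and -0.35 to 0.40 for STARD4. In SK-N-MC it gave -0.36 to 0.021 for SCAP, -0.099 to 0.22 for NPC1 and -0.078 to 0.079 for INSIG2. For the difference between the lines it gave -0.38 to 0.14 for SCAP, -0.20 to 0.30 for INSIG2, -0.23 to 0.41 for NPC1 and -0.55 to 0.19 for SREBF1, and between control lines -0.083 to 0.56 for NPC1. The cause was not tested. The share of genes higher, among those with an unadjusted p under 0.05, was 69.1% in RD-ES as deposited, 41.2% with median scaling and 53.7% with quantile normalization, and for the difference between lines 32.4%, 56.3% and 43.4%. Depth limits ABCA1 most, and a gene without a call is not shown to be alike in both groups.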
